A study of Homo sapiens with 8 samples.

Results

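HD-MB03 is a cell line of Group 3 medulloblastoma (G3-MB), a childhood tumour of the cerebellum, and its acetylated regions were set against those of 2 further G3-MB lines, MB002 and D425. Of the 15286 regions deposited for HD-MB03, the 500 strongest were taken, and 112 of them (22.4%) had no overlapping region, or one at least 4-fold weaker, in MB002 and in D425. These 112 regions are called members below. The signal of a region was its H3K27ac value minus its input value, set to 0 where negative and divided by the median over all regions of the line, so that 1 is the line's median region. Regions were matched where they shared at least 1 bp, and the strongest overlapping region was the counterpart. The signal in these 3 lines chose the members, so their values in these lines are descriptions with no test.

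H3K27ac is the acetylated form of lysine 27 of histone H3, and input is DNA sequenced without immunoprecipitation. MB002 and HD-MB03 (labelled HDMB03) were grown in tumour stem medium with EGF, FGF-basic, LIF and heparin, whereas D425 and UW228, a sonic hedgehog (SHH) medulloblastoma line, were grown in DMEM with fetal bovine serum, so medium and line cannot be told apart in the comparisons of HD-MB03 with D425 and UW228. No treatment was given to any line, and each line is a single culture model without stromal or immune cells. Each of the 4 lines had 1 H3K27ac library and 1 input library, without replicates, so no spread between replicates and no p-value can be given, and a fold difference here compares libraries.

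H3K27ac marks active promoters and enhancers, where the acetylases p300 and CBP act. Stretches of many closely spaced enhancers, called super-enhancers, are found near genes that define a cell's identity and near oncogenes. G3-MB is known for high *MYC* and for a photoreceptor-like programme driven by *OTX2*, *CRX* and *NRL*. A region is named here by the gene whose start lies nearest to its centre, which does not show that it acts on that gene.

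One member covered *MIR17HG*, the host transcript of the miR-17-92 cluster, a set of 6 miRNA hairpins known as an oncogenic cluster under *MYC* control. The member ran from 91340608 to 91354157 on chromosome 13 (GRCh38) and held all 12 mature miRNAs of the cluster. The better known arm of each hairpin is given from RefSeq (GRCh38.p14), 5′ to 3′, with the seed (bases 2 to 8) in capitals, because the cluster is read through its seeds. miR-17-5p and miR-20a-5p share the seed AAAGUGC, miR-19a-3p and miR-19b-3p share GUGCAAA, and miR-18a-5p and miR-92a-3p have seeds of their own.
hsa-miR-17-5p: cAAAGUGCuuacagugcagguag
hsa-miR-20a-5p: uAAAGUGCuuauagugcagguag
hsa-miR-18a-5p: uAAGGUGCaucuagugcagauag
hsa-miR-19a-3p: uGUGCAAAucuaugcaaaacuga
hsa-miR-19b-3p: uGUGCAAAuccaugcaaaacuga
hsa-miR-92a-3p: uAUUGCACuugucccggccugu

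The signal of this member was 43.2 in HD-MB03 and 9.95 in MB002, and there was no overlapping region in D425 or UW228. HD-MB03 was 4.34-fold above MB002, at input densities (input per base pair over the line's median) of 1.07 and 0.798, and the region was no longer a member when signals were divided by these densities. A further member lay 17.6 kb from the *MIR17HG* start, from 91309273 to 91330088, and had 35.7 in HD-MB03, 1.70 in MB002 and 0.258 in D425. The neighbouring member at *LINC00380*, a non-coding RNA gene, had 85.6 in HD-MB03, 9.55 in MB002 and 8.82 in D425. Together these 3 members spanned 276 kb, over which the HD-MB03 regions summed to a signal of 174 and covered 116067 bp. The MB002 regions of the same span summed to 31.2 over 43795 bp and the D425 regions to 10.3 over 22966 bp, and UW228 had no region. The median relative input density of the span was 1.07 in HD-MB03, 0.911 in MB002 and 1.22 in D425.

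The next promoters belong to 5 of the strongest members that covered a start of a protein-coding gene in the RefSeq promoter table, in which a gene may have several starts, and each is the 250 bases before the first listed start inside the member, from RefSeq (GRCh38.p14), 5′ to 3′ on the gene's strand. They were searched on both strands for TAATCC, the core bound by OTX2 and CRX, and for the E-box CACGTG, which MYC binds, and matches are in capitals.
*PELI2*, chr14:56118161-56118410, plus strand: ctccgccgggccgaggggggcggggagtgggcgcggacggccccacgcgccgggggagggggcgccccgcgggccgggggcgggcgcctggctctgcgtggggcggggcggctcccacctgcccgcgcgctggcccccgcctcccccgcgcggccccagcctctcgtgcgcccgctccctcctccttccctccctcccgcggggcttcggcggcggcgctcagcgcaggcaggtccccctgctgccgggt
*HPCAL1*, chr2:10329913-10330162, plus strand: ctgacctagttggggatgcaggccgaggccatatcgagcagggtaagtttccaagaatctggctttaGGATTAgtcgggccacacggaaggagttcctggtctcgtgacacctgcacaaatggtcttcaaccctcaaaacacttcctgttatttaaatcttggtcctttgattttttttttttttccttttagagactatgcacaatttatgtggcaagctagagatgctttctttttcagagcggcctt
*RAP1GAP2*, chr17:2939711-2939960, plus strand: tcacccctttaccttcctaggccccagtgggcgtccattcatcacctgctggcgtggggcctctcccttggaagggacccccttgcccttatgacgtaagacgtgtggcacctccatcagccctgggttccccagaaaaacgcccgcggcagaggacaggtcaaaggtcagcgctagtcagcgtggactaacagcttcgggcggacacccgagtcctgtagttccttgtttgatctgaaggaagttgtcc
*NFIB*, chr9:14322388-14322637, minus strand: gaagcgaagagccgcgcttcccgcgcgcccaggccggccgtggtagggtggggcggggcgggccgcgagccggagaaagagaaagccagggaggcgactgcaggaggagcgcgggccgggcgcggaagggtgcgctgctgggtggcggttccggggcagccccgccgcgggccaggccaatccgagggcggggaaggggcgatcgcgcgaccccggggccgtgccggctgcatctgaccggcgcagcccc
*PTCH1*, chr9:95509267-95509516, minus strand: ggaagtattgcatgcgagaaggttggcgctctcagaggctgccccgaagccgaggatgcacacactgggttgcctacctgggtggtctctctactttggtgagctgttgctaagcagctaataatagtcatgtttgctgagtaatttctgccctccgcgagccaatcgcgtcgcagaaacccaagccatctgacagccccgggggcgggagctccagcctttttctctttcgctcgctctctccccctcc

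*PELI2* encodes a ubiquitin ligase of innate immune signalling, *HPCAL1* a neuronal calcium sensor, *RAP1GAP2* an activator of RAP1 GTPase activity, *NFIB* a developmental transcription factor and *PTCH1* the receptor of hedgehog ligands. The only match among the 5 was the reverse complement GGATTA before *HPCAL1*. Over the 58 protein-coding genes with a promoter listed inside a member, 4 (6.90%) held TAATCC and 6 (10.3%) held CACGTG. The shares over all 35116 listed promoters were 5.62% and 6.34%. A match describes letters and does not show binding.

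Over all 15286 HD-MB03 regions, 5446 met the same rule, or 35.6%, a larger share than among the 500 strongest. MB002 had 26072 regions and D425 had 26317. The same rule applied to the 500 strongest regions of MB002, against HD-MB03 and D425, was met by 143 (28.6%), and in D425 by 205 (41%). Of the 500 strongest HD-MB03 regions, 47 had no overlapping region in MB002 and 130 had a weaker one, whereas 85 had none in D425 and 121 a weaker one. A total of 32 members had no overlapping region in either line. The weakest of the 500 and the strongest region beyond them both had a signal of 21.8. The weakest of the 500 was 30.4 in MB002 and 33.8 in D425, so the shares of the lines were taken at unlike signal levels. With the median over the 10000 strongest regions as the scale, HD-MB03 had 210 members. The order of these shares is therefore not read as a trait of the lines. Just inside the fold limit lay the regions at *MIDEAS-AS1* (4.05-fold over the stronger counterpart), *SPATA2* (4.05-fold) and *SNHG5* (4.25-fold), and just outside lay those at *TRIM8* (3.94-fold), *MIR99AHG* (3.78-fold) and *BTBD16* (3.77-fold).

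**Figure D1:**
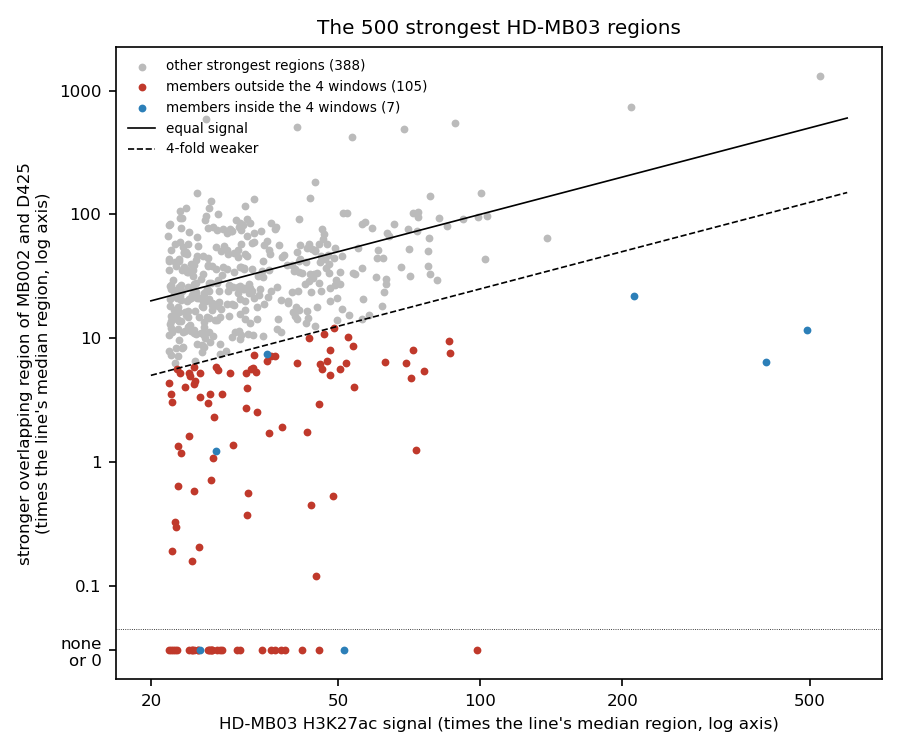
Each point is 1 of the 500 strongest HD-MB03 regions, with its HD-MB03 signal on the x axis and the stronger overlapping region of MB002 and D425 on the y axis, both log axes in multiples of the line's median region. The 112 members lie below the dashed line of 4-fold, the 7 members of the 4 chromosomal windows include the 3 strongest at 494, 403 and 212, and regions without a counterpart signal sit in the strip at the bottom.

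The 25 strongest members outside the 4 windows had signals from 44.9 to 98.4 in HD-MB03, and the strongest counterpart among them was 12.1. Their relative input density was 0.866 to 1.77. The strongest lay on chromosome 13 from 70606671 to 70665504, 350 kb from the nearest start, that of the non-coding *LINC00348*. It had 98.4 in HD-MB03 and no overlapping region in MB002, D425 or UW228. A further member near *LINC00348* had 42.9 in HD-MB03, 0 in MB002 and 1.76 in D425. Neither of these regions lay over a listed gene.

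Inside the body of *MAD1L1*, which encodes a protein of the spindle assembly checkpoint, lay 2 members of many stitched peaks. The region from 2037392 to 2172509 on chromosome 7 held 49 peaks and had 86.1 in HD-MB03, 7.61 in MB002 and 3.26 in D425. The region from 1848172 to 2022236 held 66 peaks and had 73.0, 1.23 and 1.24, respectively, and its nearest start was that of *ELFN1-AS1*. Neither had a UW228 region above 0.496. The stretch of 1371 kb that holds both of them and the member over the start of *SUN1*, a nuclear envelope gene (50.4 in HD-MB03, 1.29 in MB002 and 5.60 in D425), summed to 334 in HD-MB03 over 570923 bp, 37.0 in MB002 over 94012 bp and 245 in D425 over 223979 bp. The 66 D425 regions of this stretch thus held far more signal than the strongest counterparts of the members.

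*NFIB* carried 2 members, one from 14301736 to 14328169 on chromosome 9 with 53.9 in HD-MB03, 4.04 in MB002 and 0.141 in D425, and one with 37.8 in HD-MB03, 0.0887 in UW228 and no overlapping region in MB002 or D425. Both lay inside the gene, although the nearest start was that of *NFIB-AS1*. The *PTCH1* member had 53.6 in HD-MB03, 8.63 in MB002, 4.74 in D425 and 0.520 in UW228. The member over the start of *BMI1*, which encodes a Polycomb subunit that promotes stem cell renewal, had 52.3 in HD-MB03, 2.13 in MB002 and 10.3 in D425.

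The member over the start of *COL6A1*, a chain of collagen VI, held 33 peaks over 140 kb and also overlapped the gene *PCBP3*. It had 76.0 in HD-MB03, 4.40 in MB002 and 5.39 in D425. Inside *COL5A1*, a chain of collagen V, a member of 19 peaks had 44.9 in HD-MB03, 0.119 in MB002 and no overlapping region in D425. *COLGALT2*, whose product adds galactose to collagen, had 48.7 in HD-MB03, 0.526 in MB002 and none in D425. UW228 had no region at the *COL6A1* member and signals of 0.628 and 4.38 at those of *COL5A1* and *COLGALT2*. Other collagen genes were read by their strongest region over the body or within 50 kb of the start, and named after their values were seen. *COL4A2* was higher in HD-MB03 (10.3, against 0 in MB002 and 1.38 in D425). *COL6A2* (0.652, 0.446 and 4.23) and *COL5A2* (0.189, 0 and 17.3) were not. *COL3A1* had no HD-MB03 region, with 0.718 in MB002 and 0.29 in D425.

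The *HPCAL1* member had 72.0 in HD-MB03, 8.01 in MB002, 4.34 in D425 and 7.10 in UW228. The member over *YKT6* and *CAMK2B*, a calcium-dependent kinase of synapses, had 71.3, 4.79, 1.31 and 0.836, respectively. *NRN1*, which encodes a protein that promotes neurite growth, had 45.7 in HD-MB03, 6.16 in MB002 and none in D425. The start of *CACNA2D1*, a subunit of voltage-gated calcium channels, held a single peak with 45.4 in HD-MB03 and no overlapping region in the other 3 lines. A start without a region may have been left out there. Further members lay over *RAP1GAP2* (69.7 in HD-MB03, nearest start *OR1D5*), over *ANKS1A* (62.7, nearest start *TCP11*), over *ANKRD11* (51.8, nearest start *ZNF778*), at *MIDEAS-AS1* (48.8), over the start of *DLEU2* (48.0), over *MGLL* (46.7, nearest start *ABTB1*) and over the start of *PBXIP1* (46.1). Those at *MIDEAS-AS1*, *MGLL* and *PBXIP1* were no longer members when signals were divided by input density.

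**Figure D2:**
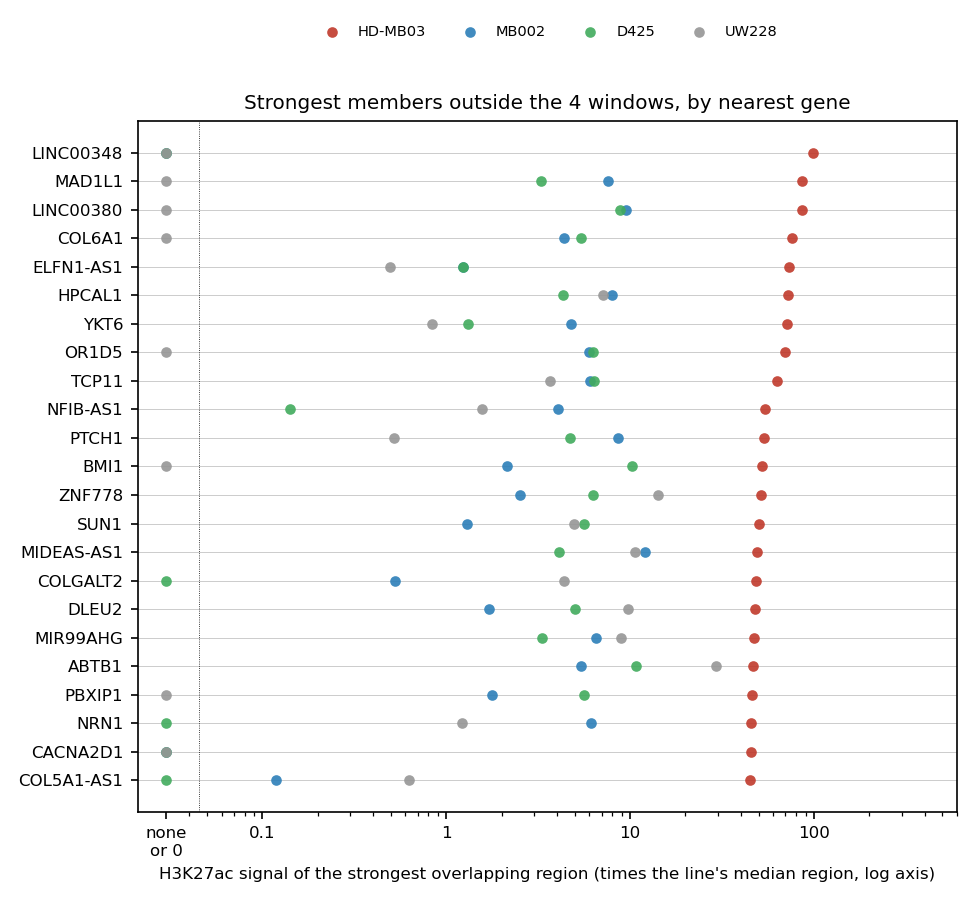
Signal of the strongest members outside the 4 windows, by nearest gene and without those over a gene not reported here, in HD-MB03 and of the strongest overlapping region in MB002, D425 and UW228 (log axis, multiples of the line's median region, with absent regions at the left). HD-MB03 lies between 44.9 and 98.4 in each row, and the MB002 and D425 points reach at most 12.1.

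*MIR99AHG*, the host of miR-99a and let-7c, was the only gene outside the 4 windows nearest to 3 members. These had 47.3, 43.8 and 26.7 in HD-MB03, against at most 6.53 in MB002 and 3.33 in D425. The weakest of them was no longer a member when signals were divided by input density. Over their span of 245 kb, HD-MB03 summed to 119 over 109772 bp, MB002 to 10.6 over 29576 bp and D425 to 4.45 over 6225 bp. UW228 summed to 72.4 over 90126 bp, so that the SHH line lay nearer to HD-MB03 here than the G3-MB lines did. In all, 37 members fell into 15 groups with gaps of at most 1000 kb, and the 112 members had 100 nearest genes. Over the stretch that spans the members at *COL5A1* and *OLFM1*, the regions summed to 91.6 in HD-MB03 over 189165 bp, 0.119 in MB002 over 343 bp and 0.628 in UW228 over 5031 bp, with none in D425. Around *GRM4*, *HMGA1* and *TCP11*, in contrast, the sums were 135 in HD-MB03 over 255364 bp, 113 in MB002 over 153065 bp and 67.6 in D425 over 71267 bp, so the lines were nearer to each other over the whole stretch.

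Further members were named after their values were seen. *NR4A1AS* and *NR4A3*, at genes of orphan nuclear receptors induced early by stimuli, had 33.6 and 31.9 in HD-MB03, with at most 2.51 in MB002 and 1.71 in D425. *AKT2* (26.6) had no overlapping region in the other lines, and *RICTOR* (21.8), a subunit of the mTORC2 kinase complex, had one only in UW228 (5.59). *NFATC1* (41.8) and *NFATC4* (28.3), transcription factors activated by calcineurin, had at most 3.55 in MB002 and 0.620 in D425. *E2F3* (30.9), a cell cycle transcription factor, and *BBC3* (30.4), which encodes the apoptosis inducer PUMA, had no overlapping region elsewhere. All of these members but that at *BBC3* covered a start, and starts may not have been left out in the same way in each line.

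The members differed in form. A total of 26 were single peaks over a gene start, 36 covered a start with more peaks and 50 covered none, with 1 start counted per gene. Thus 55.4% of the members covered a start, against 66.8% of the other 388 regions, and single peaks over a start were 23.2% of the members and 14.4% of the others. When the starts of all GENCODE 44 transcripts were used, an alternative added after seeing the data, the shares were 87.5% and 94.3%. The median length was 20.3 kb for members and 26.6 kb for the others. In all, 21 mature miRNAs listed in RefSeq lay inside 6 members, with chromosome 8 not searched. The authors' super-enhancer call was given to 67 members (59.8%) and 235 of the others (60.6%).

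The single peaks over a start include genes that nearly every cell uses. Examples chosen after their values were seen are *RPS2*, a ribosomal protein gene (26.9 in HD-MB03), *SIN3A*, a corepressor gene (26.97), *CRY1*, a clock gene (26.4), *CLK1*, a splicing kinase gene (25.2) and *WDR74*, a ribosome assembly gene (24.1), all without an overlapping region in MB002, D425 and UW228. Among the 500 strongest regions, 82 were single peaks over a start in HD-MB03, 13 in MB002, 14 in D425 and 1 in UW228. The study's methods leave out the 2.5 kb beside promoters, but the deposited tables still held regions wholly within 2.5 kb of a start, 242 in HD-MB03, 287 in MB002, 316 in D425 and 184 in UW228. Whether starts were left out in the same way in each line could not be told from the tables, so a start without a region may be left out or unacetylated, and these counts cannot be read as differences in acetylation. With regions over a start left out in all lines, also added after seeing the data, 130 members were found, 50 of them among the 112.

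UW228 was not used to choose the members. An overlapping UW228 region was present for 55 members (49.1%) and for 256 of the other strongest regions (66.0%), and it was less than 4-fold weaker for 12 members (10.7%) and 80 of the others (20.6%). Among regions over no start the shares with any overlap were 48% for members and 69.0% for the others, and among single peaks over a start they were 42.3% and 41.1%. UW228 was stronger than HD-MB03 at 0 of the 112 members and at 11 of the other 388. The nearest approach among the 25 strongest was at *ABTB1*, with 46.7 in HD-MB03 and 29.4 in UW228, while MB002 had 5.44 and D425 10.7. The median relative input density was 1.08 over members and 1.05 over the others, and 7 members had a density of 2 or more, all inside the windows.

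The 4 windows held 7 members. The window from 133 to 135 Mb of chromosome 8 had 5, and that from 56 to 59 Mb of chromosome 14 had 2, whereas the windows from 127 to 130 Mb of chromosome 8 and from 226 to 228 Mb of chromosome 2 had none. Input reads rise with the number of copies of a locus, so relative input densities are given with the signals, and copy number and acetylation per copy cannot be told apart from the signal. When each signal was divided by the region's own relative input density, no member lay in the windows.

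In the window from 133 to 135 Mb, the median relative input density was 45.1 in HD-MB03, 1.01 in MB002, 2.37 in D425 and 1.01 in UW228. The 44 HD-MB03 regions summed to 1244 over 332 kb, against 337 in MB002 over 376 kb and 242 in D425 over 193 kb, which is 3.75, 0.896 and 1.25 per kb. Divided by input density, the signals summed to 57.4 in HD-MB03, 261 in MB002 and 87.1 in D425, which put HD-MB03 below both. The 2 strongest members of all lay at *ZFAT*, a zinc finger gene linked to immune cells. The single peak over its start had 494 in HD-MB03, 11.6 in MB002 and 11.1 in D425, at densities of 44.8, 0.983 and 3.12. Divided by these densities the values were 11.02, 11.8 and 3.57, so that HD-MB03 no longer exceeded MB002. The region of 16 peaks inside the gene had 403, 1.54 and 6.37, at densities of 56.1, 0.753 and 2.97, and 7.18, 2.05 and 2.14 after division. A further member near *ZFAT* had 25.4, and 2 near the non-coding *LINC03024* had 51.3 and 27.5. Of the other strong *ZFAT* regions, one had 41.4 in HD-MB03 and 43.3 in MB002, and one had 31.6 and 16.8, so that not all regions of the window were higher. Divided by density, the first had 0.820 and 38.7 and the second 0.730 and 16.5.

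In the window of chromosome 14, the median input density was 4.49 in HD-MB03, 30.2 in MB002 and 1.21 in D425. The summed signal was 628 over 326 kb, 5277 over 664 kb and 569 over 123 kb, or 1.92, 7.95 and 4.64 per kb. Both members lay in *PELI2*. The region over its start had 212 in HD-MB03, 22.0 in MB002 and 11.2 in D425, with densities of 4.77, 0.985 and 1.18. Divided by these densities the values were 44.3, 22.3 and 9.47, so that HD-MB03 stayed the highest but by less than 4-fold. The second had 35.2, 7.49 and 5.42, or 6.73, 7.97 and 3.78 after division, which put MB002 first. Over *OTX2*, in contrast, HD-MB03 was the lowest of the 3 lines, with 208 against 733 in MB002 and 354 in D425, at densities of 5.84, 35.2 and 53.3. Divided by these densities, the values of this region were 35.6, 20.9 and 6.64, which put HD-MB03 first. The neighbouring region had 68.9 in HD-MB03, 487 in MB002 and 21.2 in D425, at densities of 7.41, 40.8 and 64.5, and MB002 remained first after division, with 11.94 against 9.29 in HD-MB03 and 0.328 in D425. Over the whole window the divided signals summed to 103 in HD-MB03, 179 in MB002 and 58.6 in D425. The region nearest to *CCDC198* (20.1) met the fold limit but ranked below the 500 strongest.

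In the window from 127 to 130 Mb of chromosome 8, the median density was 0.982 in HD-MB03, 1.18 in MB002 and 2.46 in D425, while single regions reached 154, 46.5 and 136, respectively. The strongest region of HD-MB03 lay here, nearest to the non-coding *CCAT2*, with 524 in HD-MB03, 1064 in MB002 and 1318 in D425, at densities of 119, 46.5 and 136. A region near *CASC11* had 40.8, 512 and 112, at densities of 30.6, 36.2 and 45.4. Near *LINC02912* the strongest HD-MB03 region had only 5.63, against 9.52 in MB002 and 9.68 in D425, at densities of 0.667, 1.18 and 2.46. Divided by these densities the values were 8.44, 8.09 and 3.93, so that HD-MB03 was no longer the lowest. In the window of chromosome 2, the density was 4.74 in HD-MB03, 0.957 in MB002 and 0.907 in D425, and the signal summed to 139 over 115 kb, 146 over 262 kb and 123 over 307 kb, or 1.21, 0.555 and 0.402 per kb. Divided by input density, the signals of this window summed to 25.8 in HD-MB03, 121 in MB002 and 128 in D425, which put HD-MB03 below both. The strongest region, over *IRS1*, an adaptor of the insulin receptor, had 43.4 in HD-MB03, 28.9 in MB002 and 21.9 in D425, at densities of 4.99, 1.48 and 1.09. Divided by these densities, HD-MB03 was the lowest, with 8.69 against 19.5 and 20.2. A smaller region near *SCYGR1* had 12.1, 1.21 and 5.82, at densities of 5.86, 1.23 and 0.822. Divided by these densities the values were 2.07, 0.989 and 7.08, which put D425 first.

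In the opposite direction, 149 of the 500 strongest MB002 regions overlapped one of the 500 strongest D425 regions, and 66 of these (44.3%) had no HD-MB03 region or one at least 4-fold weaker than both. Over all 11731 MB002 regions that overlapped a D425 region, 53.6% met this rule, so the share of the strong regions was not above that of all. Only 6 of the 66 had no HD-MB03 region, and the median signal of the 66 was 49.5 for MB002, 54.3 for D425 and 4.53 for HD-MB03. Of the 66, 32 covered a start and 1 was a single peak over a start. For these 32 too, starts may not have been left out in the same way in each line. Single peaks over a start were also few among all 500 strongest MB002 regions (13). The median density of the MB002 regions was 1.11.

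By MB002 signal, the strongest lay over *MYC*, where MB002 had 383, D425 had 259 and HD-MB03 had 4.30, at densities of 23.8, 62.8 and 153. The HD-MB03 value is that of a single region of 458 bp, 18.8 kb from the *MYC* start, with the highest input of the 3 lines. Starts may not have been left out in the same way in each line, so this value cannot be read as the acetylation at the *MYC* start. Next came *OTX2-AS1* (209, 128 and 5.39), at MB002 and D425 densities of 30.6 and 47.4. The other named regions had MB002 densities of 0.858 to 1.54. At *KIRREL1-IT1*, over the start of the adhesion gene *KIRREL1*, MB002 had 200, D425 had 55.0 and HD-MB03 had 9.19, while UW228 had 53.3. *WFDC1*, a gene of a secreted protein, had 116, 83.4 and 0.922 in MB002, D425 and HD-MB03. *PCBP4*, an RNA-binding protein gene, had 104, 37.5 and 4.91, and *LINC02766*, at a region inside *VPS13D*, had 93.7, 39.4 and 3.30. *DAPK1-IT1*, inside the gene of a kinase that promotes cell death, had 91.8, 42.4 and 4.19. *ARHGAP42-AS1* had 91.6, 38.9 and 6.996, and *CADPS*, which acts in vesicle release, had 87.2, 52.2 and 5.90. By D425 signal the strongest was *BCL2L1-AS1*, over the start of the anti-apoptotic gene *BCL2L1*, with 300.2 in D425, 62.3 in MB002 and 6.35 in HD-MB03, named after its values were seen.

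**Figure D3:**
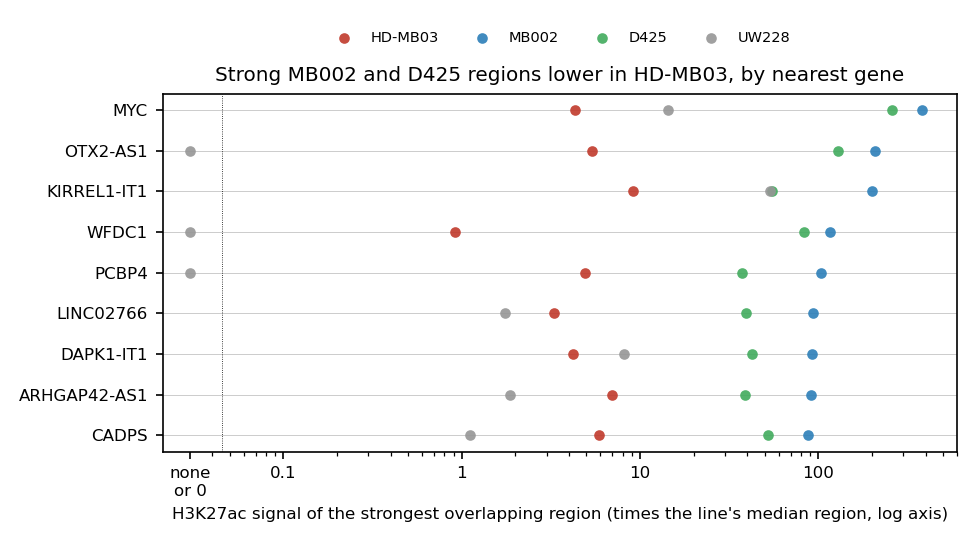
Signal of strong MB002 regions that were at least 4-fold weaker in HD-MB03 than in MB002 and D425, by nearest gene, in the 4 lines (log axis, multiples of the line's median region, with absent regions at the left). MB002 and D425 lie between 37.5 and 383, and HD-MB03 between 0.922 and 9.19.

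The strongest region over a gene's body or within 50 kb of its start was also compared for fixed lists of genes. Of the 20207 genes with a region in any of the 3 G3-MB lines, 1542 (7.63%) were at least 4-fold higher in HD-MB03 than in both others, and 4946 (24.5%) were at least 4-fold below both, where a gene without a HD-MB03 region counts as below if it had one in both others. HD-MB03 had fewer regions (15286) than MB002 (26072) and D425 (26317), and whether this difference in number bears on these shares was not tested. Neighbouring genes share regions, so genes are not independent, and the region counted for a gene may lie nearer to another gene. Of the 19 list genes that were higher, 4 (*PDE6B*, *AIPL1*, *THY1* and *CTDNEP1*) had a HD-MB03 region that was not 4-fold above the MB002 and D425 regions overlapping it, since those lay beyond the limit of 50 kb.

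Of the photoreceptor genes, 34 of 36 had a region, and 2 were higher in HD-MB03 and 11 lower. *OTX2* and *GNAT1*, the rod transducin gene (100.3 in HD-MB03, 149.7 in MB002 and 114.6 in D425), had strong regions in all 3 lines, as had *IMPG2* (34.5, 34.9 and 22.6) and *TULP1* (25.2, 20.6 and 17.7). The HD-MB03 regions counted for *GNAT1* and *TULP1* lay nearer to the starts of *SEMA3F* and *RPL10A*. *CRX*, the photoreceptor homeobox gene, had 10.3 in HD-MB03, 75.1 in MB002 and 78.1 in D425, and *GUCA1B*, an activator of retinal guanylate cyclase, had 8.46, 55.9 and 69.0. Both were nearest genes of regions lower in HD-MB03. The 2 higher genes were *PDE6B* (22.99, 1.91 and 0) and *AIPL1* (14.9, 0.578 and 1.92), a rod phosphodiesterase subunit and its chaperone, named after their values were seen. Their HD-MB03 regions, nearest to *ATP5ME* and *PIMREG*, overlapped D425 regions of 16.2 and 7.54, so neither was 4-fold above its counterpart.

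Of the rhombic lip and granule lineage regulators, 4 of 27 were higher and 7 lower. *NEUROD1* (60.3 in HD-MB03, 44.6 in MB002 and 33.7 in D425), *TBR1* (50.4, 6.92 and 27.4) and *NEUROG1* (32.5, 25.2 and 24.6) had the strongest HD-MB03 regions after *OTX2*. *ZIC2* and *ZIC5*, which share a region (15.6, 0.836 and 0), were among the higher ones, and the other two were weak, *BARHL1* (3.28) and *GBX2* (0.0956). *MEIS2* (0, 24.2 and 29.7) was among the lower ones, and these genes were again named after their values were seen. Of 28 neural stem and glial genes, 2 were higher and 4 lower. The higher ones, named after their values were seen, were *GFAP* (16.2, 0 and 0) and *SOX8* (2.65, 0.134 and 0). Their HD-MB03 regions lay nearest to *EFTUD2* and *LMF1*. *MSI2*, an RNA-binding stem cell factor, had 88.2 in HD-MB03, 546 in MB002 and 266 in D425, *SOX4* had 42.7, 25.2 and 41.2, *ID3* had 29.8, 11.4 and 74.0 and *HES1* had 27.6, 8.35 and 74.8. *NFIB* was in this list, but its strongest regions anywhere within 50 kb were 53.9, 8.10 and 26.6, so HD-MB03 was not 4-fold above D425 over the gene as a whole.

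Of 28 neuronal differentiation genes, none was higher and 6 were lower, and the strongest HD-MB03 regions lay at *NHLH1* (22.97, 41.8 and 15.2), *POU4F1* (15.9, 20.5 and 0.131), *RBFOX3* (9.51, 2.87 and 0) and *INSM1* (4.59, 1.503 and 0). Of 29 mesenchymal and matrix genes, 6 (20.7%) were higher and 5 lower. The higher ones were *COL6A1*, *COL5A1*, *COL4A2*, *THY1*, *ACTA2* and *SNAI2*, but the region counted for *THY1* (20.02) overlapped D425 and MB002 regions of 41.8 and 19.9, and *SNAI2* (0.631 in HD-MB03) and *ACTA2* (1.06) had only weak regions. UW228 was above HD-MB03 at *SNAI2* (5.72), *ACTA2* (8.61) and *COL4A2* (20.5 against 10.3). *SNAI1* (22.7, 10.2 and 11.5), *S100A4* (21.1, 16.5 and 34.3) and *ZEB1* (20.7, 0.317 and 15.7) were not 4-fold apart from both. Members of the list went in both directions, with *TGFBI*, a matrix protein gene, at 8.35, 53.0 and 79.3 and *CAV1*, a caveola gene, at 1.37, 11.2 and 16.9 among the lower ones, both named after their values were seen. Of 25 AP-1 and YAP/TEAD genes, 2 were higher and 3 lower, and *ATF3* (48.0, 10.8 and 17.8), *JUND* (46.8, 22.5 and 43.4), *JUNB* (37.4, 22.6 and 56.6) and *FOSB* (29.0, 5.62 and 36.1) had the strongest HD-MB03 regions. The higher ones, named after their values were seen, were *FOSL2* (19.9, 0 and 1.83) and *BATF3* (8.13, 1.77 and 0.960).

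Of 44 signalling genes, 2 were higher and 11 lower. *PTCH1* was higher, as was *AXIN2* with a weak region (1.46), whereas *GLI1*, the transcription factor of the hedgehog pathway, had 32.8 in HD-MB03, 11.8 in MB002 and 36.4 in D425. *SPRY4* had 22.1, 51.7 and 16.8, and *NOTCH1* had 15.2, 2.13 and 91.1. Of 29 medulloblastoma driver genes, 1 was higher and 8 lower. *MYC* was among the lower ones, by the short HD-MB03 region of 458 bp at an input density of 153. The higher gene was *CTDNEP1* (24.7, 2.59 and 0.555), a phosphatase gene, whose HD-MB03 region lay nearest to *ACADVL* and overlapped a D425 region of 11.6. *IGF2BP3* (60.6, 49.7 and 51.5) and *CDK6* (26.4, 44.7 and 19.8) had strong regions in all 3. Of 29 *HOX* genes with a region, none was higher and 8 were lower, and the strongest HD-MB03 region was the one shared by *HOXC* genes (0.926).

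Markers of the medulloblastoma subgroups were read in the same way, to check the label. Of the 6 Group 3 markers, *IMPG2*, *EYS* (22.1 in HD-MB03, 8.23 in MB002 and 13.9 in D425) and *NRL* (17.8, 8.46 and 26.6) had regions in HD-MB03 and in both other G3-MB lines, with at most 3.90 in UW228. *MAB21L2* (53.3 in MB002 and 14.02 in D425) and *GABRA5* had no region in HD-MB03, and *NPR3* had none in the 3 lines. None of the Group 3, Group 4 and WNT markers was at least 4-fold higher in HD-MB03 than in both others. HD-MB03 also had regions at the Group 4 markers *UNC5D* (2.22), *KHDRBS2* (1.41) and *OAS1* (0.433) and at the WNT marker *TNC* (8.09). Having a region was thus not particular to the Group 3 markers. Of the SHH markers, the start of *PDLIM3* was a member, with 35.9 in HD-MB03 and no overlapping region in the other 3 lines. A start without a region may have been left out in those lines. Within 50 kb of *PDLIM3* the strongest regions were 9.50 in MB002, 3.74 in D425 and 6.62 in UW228. *EYA1* had no region in HD-MB03 and *HHIP* had 0.371.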

How the data were processed

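H3K27ac ChIP-seq and input libraries of HD-MB03, MB002, D425 and UW228 were used, 1 of each kind per line. Reads had been mapped by the authors to GRCh38 with Bowtie 2 (2.3.0) and handled with SAMtools (1.9), per the submitters' processing notes. Multi-mapping and duplicate reads were removed with sambamba, peaks were called over input with MACS2 (2.2.6), and peaks were stitched and ranked with ROSE. The study's methods state that promoter flanks were left out, although some regions within 2.5 kb of a start remain in each table. The deposited signal of a region, for ChIP and for input, is the depth-normalised read density per base pair times the region's length, and the deposited score is the ROSE rank, beside a super-enhancer call. No file used here gives library depths, so counting error could not be computed.

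Input was subtracted, the signal was divided by the median of the line, and overlaps of at least 1 bp were matched with Python 3.11.15, numpy 2.4.6 and pandas 2.3.3. Plots were drawn with matplotlib 3.10.9. The matching was tested on simulated intervals. Genes were the curated RefSeq protein-coding and lncRNA genes (24787), of which 24049 were used, with strand taken by symbol from GENCODE 44 and 1 start each. The members, lists and alternatives were chosen with earlier results of these data known. Named genes were those nearest to the 25 strongest members outside the windows, to the 5 strongest regions of each window, to 3 or more members and to the 10 strongest lower regions, and list genes nearest to such regions with up to 4 others per list. Further list genes, such as those that were higher or lower, were named after their values were seen. Promoters were printed for the 5 strongest members outside chromosome 8 that held a protein-coding start listed in the RefSeq promoter table, with *COL6A1* and *SUN1* not analysed here, and these starts include ones beyond the 1 start per gene used for counts. Alternatives changed the number of regions, the fold limit, the scaling, the input treatment and the matching. Some genes are not reported here.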

Additional observations from a re-analysis of the deposited data

How the results depend on the processing

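No paired analysis was possible because each line had 1 library of each kind. The 112 members numbered 57 among the 250 and 228 among the 1000 strongest regions, 500 when the strongest of all specific regions were taken, 188 at 2-fold and 32 without any overlapping region, 182 with division by the total signal, 210 with the median over the 10000 strongest regions, 172 by signal per base pair, 196 with an overlap of 50%, 177 against MB002 only and 206 against D425 only. By signal per base pair 31 of the 112 were kept, with division by input density 77, and 93 under each of 5 settings (total signal, values as deposited, the median over the 10000 strongest or over shared regions, and no input subtraction). The other 10 alternatives gave counts within 1.5 times of 112. The 66 lower regions numbered 27 and 132 with 250 and 1000 regions, 100 at 2-fold, 38 at 8-fold, 6 without any HD-MB03 region, 40 with the total signal, 36 with the 10000 strongest, 40 with division by input density, 41 by signal per base pair, 299 in MB002 alone and 330 in D425 alone. The 7 members in the windows became 16 with the strongest of all specific regions, 2 without any overlapping region, 14 without input subtraction, 0 with division by input density and 23 by signal per base pair. The share with a UW228 region, 49.1%, became 25% without any overlapping region, 15.3% with an overlap of 50%, 59.4% with any region within the authors' stitching distance and 59.9% against MB002 only. The share over a start, 55.4%, became 44.8% with the strongest of all specific regions, 71.9% without any overlapping region and 87.5% with the starts of all transcripts, an alternative added after seeing the data. The nearest gene was the same for 97 of 112 members when gene bodies came first and for 85 with protein-coding genes only. Beyond the settings' own construction, the cause of these shifts was not tested.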
